A study of Mus musculus with 6 samples.

Results

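Described here are 9 genes for proteins that the retinal pigment epithelium secretes or uses to move substances across its membranes, as they were measured in retinas of mice. The genes were taken by symbol from the table deposited for the series, where each of the 9 matched 1 of 49997 rows, and all 9 reached the level needed for a test. The comparison was between 3 retinas labelled Samd7 KO and 3 labelled wild type, each retina sequenced as its own library. Samd7 is a sterile alpha motif protein of photoreceptors, and the series title names photoreceptor cell identity as its subject. The KO genotype is written Samd7 knockout (-10A) in the labels, and those retinas were taken at postnatal day 31. The other group was of the genotype c57Bl6/j wt and was taken at postnatal day 36. All retinas carried a male label, and no treatment was named. Genotype and an age gap of this kind cannot be told apart. Whether the 3 retinas of a group are from 3 mice is not in the labels, and p-values therefore speak only to the spread over these libraries, which may be technical.

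The retinal pigment epithelium is a single layer of pigmented cells that lies against the tips of the photoreceptors. It takes up retinol from the blood, renews the light-sensing chromophore, clears shed outer segment discs, and moves lactate, ions and water from the retina towards the choroid. It also releases proteins, some on the side of the retina and some on the side of the vessels. When a retina is dissected, some of this layer can stay attached. In a bulk library fewer cells of a type and less RNA per cell cannot be told apart.

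The 9 genes fall into 4 roles. Ttr (transthyretin, a carrier of thyroxine and of retinol-binding protein), Serpinf1 (pigment epithelium-derived factor, which restrains vessel growth) and Enpp2 (autotaxin, the enzyme that makes lysophosphatidic acid) are secreted. Stra6 is the membrane receptor that takes retinol from retinol-binding protein. Slc16a8 (the lactate carrier MCT3), Slc6a20a (a proline and imino acid transporter) and Slc26a4 (pendrin, an anion exchanger) are transporters. Best1 (bestrophin 1, a calcium-activated chloride channel) and Kcnj13 (the inward rectifier potassium channel Kir7.1) are ion channels. In RefSeq annotation of GRCm38.p6, Serpinf1 lies at chr11:75410029-75422623, Enpp2 at chr15:54838901-54952789, Stra6 at chr9:58063793-58154004 and Slc16a8 at chr15:79251016-79255562. Slc6a20a is at chr9:123636907-123678832, Slc26a4 at chr12:31519814-31560055, Best1 at chr19:9985172-10001633 and Kcnj13 at chr1:87384577-87394729.

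Upstream sequence is shown for Slc6a20a, which had the largest fold difference of the 9, and for Kcnj13, which did not pass the test and whose window holds one of the motifs searched. RefSeq windows of the build GRCm38.p6 were searched for 7 of the 9 members, 10 windows in all. Ttr was left out of the search, and no window was found by symbol for Enpp2. The 250 bases before each start were searched on both strands for CATGTG and for CACGTG, core letters of the E-box bound by Mitf, and for TAATCC, core letters bound by Otx2 and Crx. These letters do not overlap one another. CATGTG was in the Kcnj13 window, 112 bases before the start, and in the Serpinf1 window, 76 bases before it, while TAATCC was in the Best1 window, 227 bases before it. The windows of Slc6a20a, Slc16a8, Slc26a4 and Stra6 held none of the 3, which says only that these letters are not in those stretches. The windows of Slc16a8 and Stra6 lie inside the gene spans given above, before starts within them, and that of Slc26a4 overlaps its span. Bases before the outermost start of Slc16a8 and of Stra6 were not searched. Of 32851 windows of the same length, 12.3% held CATGTG, 6.02% CACGTG and 6.25% TAATCC. Each stretch below reads 5′ to 3′ on the minus strand, from chr1:87394730-87394979 for Kcnj13 and chr9:123678886-123679082 for Slc6a20a, leaving out bases that GENCODE M21 annotates as exon. Capitals mark CATGTG, which reads CACATG on this strand.
Kcnj13: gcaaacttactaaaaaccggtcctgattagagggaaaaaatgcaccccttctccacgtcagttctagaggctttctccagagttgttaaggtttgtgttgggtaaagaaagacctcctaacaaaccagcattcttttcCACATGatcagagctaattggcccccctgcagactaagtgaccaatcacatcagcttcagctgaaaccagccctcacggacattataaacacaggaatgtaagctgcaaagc
Slc6a20a: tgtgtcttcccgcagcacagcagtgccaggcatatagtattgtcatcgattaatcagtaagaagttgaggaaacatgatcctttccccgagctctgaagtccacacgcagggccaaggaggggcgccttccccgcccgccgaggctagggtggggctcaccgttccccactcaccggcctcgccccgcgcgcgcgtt

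Some facts of the libraries bear on these genes. The recovered reads summed to 44.2 to 53.1 M in KO-labelled libraries and 62.8, 47.7 and 55.4 M in wild type 1 to 3. Values are normalized reads, that is, reads of a gene over the size factor of its library. Samd7 itself was 6.57-fold higher in the libraries labelled KO (limma adjusted p = 1.54e-08), so the targeted gene goes against a loss of transcript, and directions below are for the libraries labelled Samd7 KO. All 8 retina markers were detected in all 6 libraries. Wild type 3 stood apart by lens RNA: 8 lens markers summed to 5633 normalized reads in it and to 89.2 to 159 in the other 5 libraries. Across all genes 12.0% of 20277 passed the test, 5.21% lower and 6.79% higher, and 31.1% had groups that did not overlap.

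In the libraries labelled Samd7 KO, 4 of the 9 genes fell, 1 rose and 4 did not pass. The members that fell were the transporters Slc6a20a and Slc16a8, the secreted carrier Ttr and the retinol receptor Stra6, all of them past a log2 fold change of -1, where 1.10% of tested genes both passed and lay. Serpinf1 was the member that rose, by far less. The median log2 fold change over the 9 was -0.52, against 0.00178 over all tested genes. The groups did not overlap for 7 members, 6 of them lower and 1 higher, beside 15.2% and 15.9% of tested genes with those orders.

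**Figure D1:**
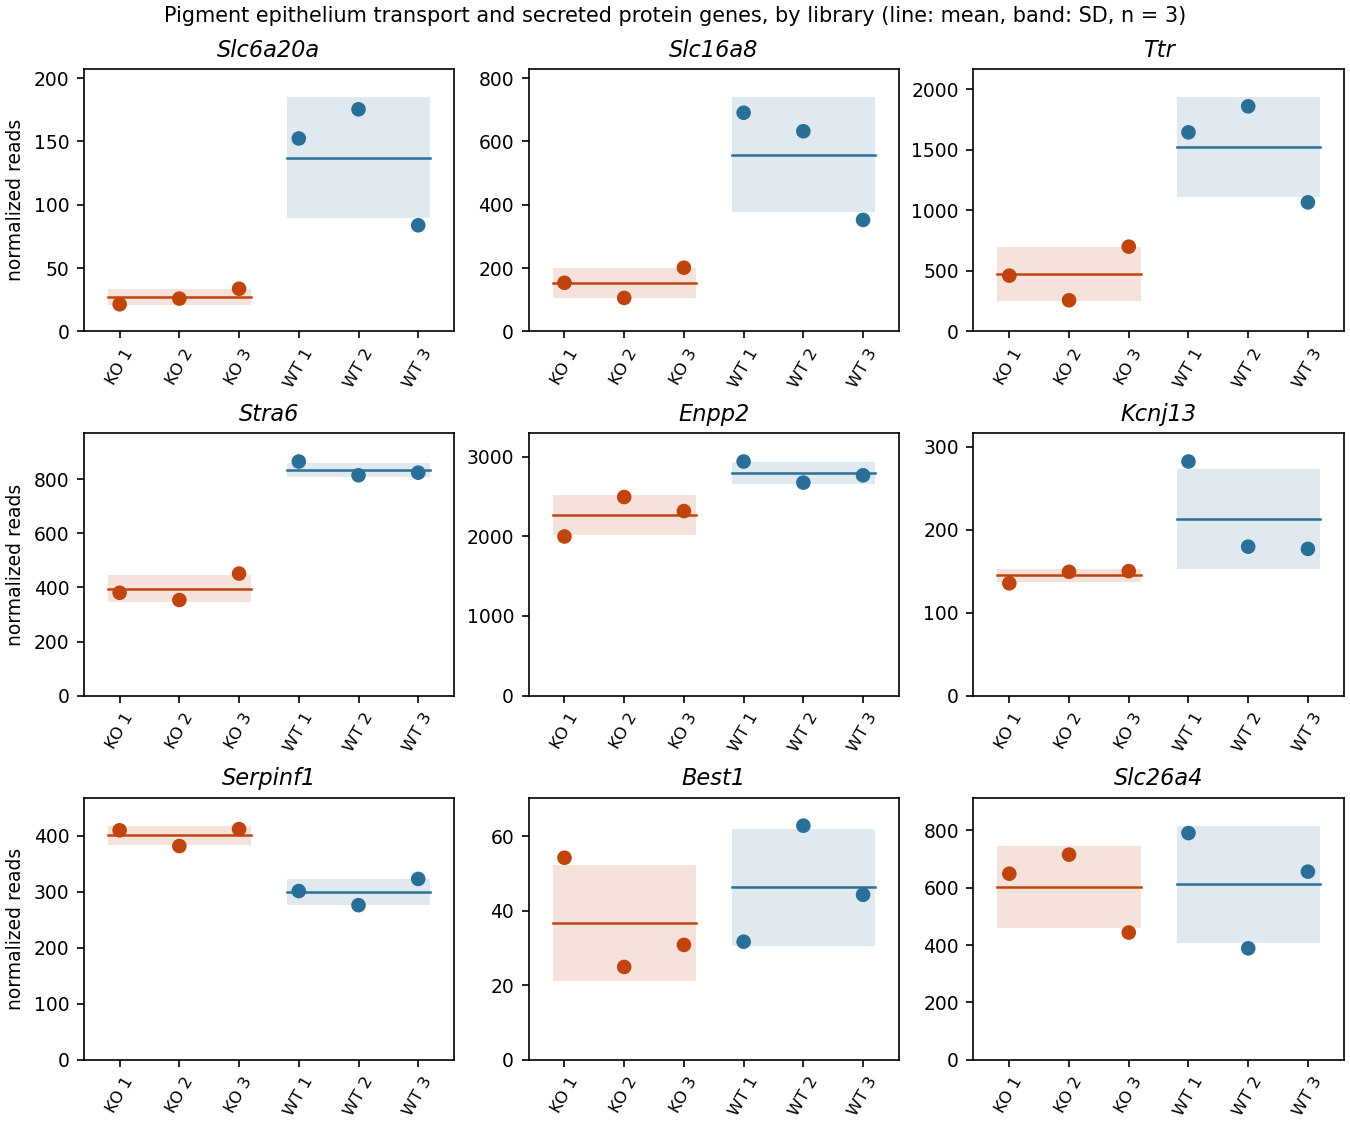
Normalized reads of each of the 9 genes (vertical axes, linear from 0) in the 3 libraries labelled Samd7 KO (orange) and the 3 wild-type libraries (blue); lines are group means and bands are 1 SD, n = 3. Slc6a20a, Slc16a8, Ttr and Stra6 are lower in all KO libraries, while Best1 and Slc26a4 overlap between groups.

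Among the secreted proteins, the 3 genes took 3 courses. Ttr had 460.4, 257 and 699.6 normalized reads in the KO-labelled libraries 1, 2 and 3 and 1644, 1858 and 1066 in wild type 1, 2 and 3. Even the lowest wild-type library, wild type 3, lay above the highest KO library, KO 3, but both groups were widely spread. The mean was 472 ± 221 against 1522 ± 410.0 (SD, n = 3 each), 3.22-fold lower (limma log2 fold change -1.76 with a standard error of 0.30, adjusted p = 0.00205). Leaving out 1 library at a time gave log2 fold changes from -2.10 without KO 3 to -1.38 without KO 2.

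Serpinf1 went the other way, and its libraries lay close together. It had 409.7, 382 and 412 normalized reads in the KO-labelled libraries and 301, 276 and 323 in wild type. All KO libraries were above all wild-type libraries. The means were 401 ± 16.9 and 300.0 ± 23.5 (SD, n = 3 each), 1.34-fold higher (limma log2 fold change 0.42 with a standard error of 0.12, adjusted p = 0.0410). This call ended in 9 of 18 other ways to run the test. They were edgeR with upper-quartile factors (12.7% of all genes called), and limma without a filter on low values (6.72% called), at an adjusted p under 0.01 (5.86%), with a replicate block (8.01%), and on leaving out KO 1 (16.0%), KO 3 (7.38%), wild type 1 (10.7%), wild type 2 (7.25%) or wild type 3 (6.48%). It held with other pseudocounts (11.9% and 12.1% called), with values scaled to total reads (13.9%), among genes with a value of at least 50 (14.1%) and with edgeR and TMM or RLE factors (12.3% and 12.2%), with DESeq2, with limma-voom and without KO 2, and adjusted p ran from 0.0154 to 0.150 over the 18.

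Enpp2 had 1999, 2495 and 2318 normalized reads in the KO-labelled libraries and 2941, 2675 and 2767 in wild type. The groups did not overlap, yet KO 2 and wild type 2 were near each other. At 2270.5 ± 251 against 2794 ± 135 (SD, n = 3 each) it was 1.23-fold lower, which did not pass (limma log2 fold change -0.30, with -0.51 to -0.10 as its 95% interval, adjusted p = 0.0588). It was called lower by DESeq2 on recovered reads (adjusted p = 0.0329, where 14.8% of genes were called), by edgeR with upper-quartile factors (adjusted p = 0.0270, 12.7% called), by limma-voom with sample quality weights (adjusted p = 0.0104, 22.9% called) and by limma without KO 2 (adjusted p = 0.0207, 10.2% called). The authors' deposited table lists an adjusted p of 0.0342 for it, and calls 14.3% of genes.

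Stra6, the retinol receptor, combined a large difference with little spread. Its normalized reads were 380.3, 354 and 451 in KO-labelled libraries and 866, 815 and 825 in wild type. Every wild-type library was far above every KO library. The means were 395 ± 50.5 and 835 ± 27.1 (SD, n = 3 each), 2.11-fold lower (limma log2 fold change -1.09 with a standard error of 0.12, adjusted p = 6.97e-05). Leaving out any 1 library kept the log2 fold change between -1.18 and -1.01.

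Of the transporters, Slc6a20a and Slc16a8 fell and Slc26a4 did not pass the test. Slc6a20a had 21.4, 25.9 and 33.7 normalized reads in the libraries labelled KO, which rest on 19, 25 and 35 reads, and 152, 175 and 83.8 in wild type. The groups were well apart, with wild type 3 the lowest of its group and KO 3 the highest of its own. It was 5.08-fold lower (27.0 ± 6.19 against 137 ± 47.6, SD, n = 3 each, limma log2 fold change -2.26 with a standard error of 0.29, adjusted p = 2.98e-04). In the authors' deposited table it was the member with an adjusted p under 0.05 against a log2 fold change of 1 (adjusted p = 0.00834, in a test that called 0.674% of genes).

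Slc16a8, which carries lactate out of the pigment epithelium towards the choroid, had 153, 106 and 201 normalized reads in the KO-labelled libraries and 690.5, 632 and 352 in wild type. KO 3 was again the highest and wild type 3 the lowest of their groups, without overlap. The means of 153 ± 47.7 and 558 ± 181 (SD, n = 3 each) differed 3.64-fold (limma log2 fold change -1.84 with a standard error of 0.26, adjusted p = 6.50e-04). Without wild type 3 the log2 fold change was -2.15, and for Slc6a20a it was -2.58.

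Slc26a4 had 649, 715 and 444 normalized reads in the KO-labelled libraries and 791, 389 and 656 in wild type. The groups overlapped widely, and each held 1 low library, KO 3 and wild type 2. Its log2 fold change was 0.01 (limma, with -0.51 to 0.53 as its 95% interval, adjusted p = 0.985), a sign that turned in 8 of 18 other ways to run the test.

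Neither channel passed the test. Kcnj13 had 135, 149 and 150.1 normalized reads in the KO-labelled libraries and 282, 179.7 and 177 in wild type. The groups did not overlap, and wild type 1 was well above the other wild-type libraries. Its log2 fold change was -0.52 (limma, with -0.93 to -0.11 as its 95% interval, adjusted p = 0.103), or -0.30 without wild type 1. Kcnj13 lies inside Gigyf2, a far more abundant gene that fell from 4389 ± 24.1 to 3240 ± 74.6 normalized reads (± SD over n = 3 a group, adjusted p by limma = 0.00140). A strand setting for the counting is not stated in what was used here, and reads of this overlapping pair may be mixed.

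Best1, often used to mark this epithelium, rested on few reads in every library. Normalized reads were 54.2, 24.9 and 30.8 in KO-labelled libraries and 31.7, 62.8 and 44.2 in wild type, on 24 to 58 reads a library. The groups overlapped (limma log2 fold change -0.35, with -1.09 to 0.38 as its 95% interval, adjusted p = 0.553). The interval takes in no change as well as a fall as large as that of Stra6.

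Per kilobase of the longest GENCODE transcript, the order of the wild-type levels was Ttr, Enpp2, Slc16a8, Stra6, Slc26a4, Kcnj13, Serpinf1, Slc6a20a and Best1. Ttr led at 1284 ± 346 normalized reads per kilobase and Best1 closed the order at 22.2 ± 7.52 (SD, n = 3 each). Libraries of Ttr and Enpp2 overlapped, as did those of Slc16a8 and Stra6, of Slc26a4 and Kcnj13, of Kcnj13 and Serpinf1, and of Slc6a20a and Best1. In the libraries labelled KO the level of Enpp2 came first at 734 ± 81.2 and that of Ttr second at 398 ± 187. Serpinf1, Slc26a4, Stra6, Kcnj13 and Slc16a8 came next, with each neighbouring pair from Ttr to Slc16a8 overlapping, and Best1 and Slc6a20a came last at 17.6 ± 7.45 and 6.94 ± 1.59 normalized reads per kilobase.

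Genes listed as defining markers of the pigment epithelium were measured beside the members. Whether the reads of these genes came from that layer alone was not tested. Of 13 defining markers, 8 fell, 0 rose and 5 did not pass, with a median log2 fold change of -1.07, and 0 of the 13 were at 0 in any library. Their summed level was 1737 to 2239 normalized reads in the KO-labelled libraries and 3746 to 5740.2 in wild type. Among them were Rgr, an opsin that binds all-trans retinal (4.23-fold lower), the retinoid isomerase Rpe65 (3.94-fold lower), the retinol dehydrogenase Rdh5 (log2 fold change -1.34) and Dct of melanin synthesis (1.72-fold lower, limma adjusted p = 0.00487). Mitf, the factor that sets pigment cell identity, was picked after its value was seen and did not pass (limma log2 fold change 0.17, with -0.15 to 0.50 as its 95% interval, adjusted p = 0.492). The part of these markers in the fall of the members was not tested, and the ratios given next are descriptions.

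**Figure D2:**
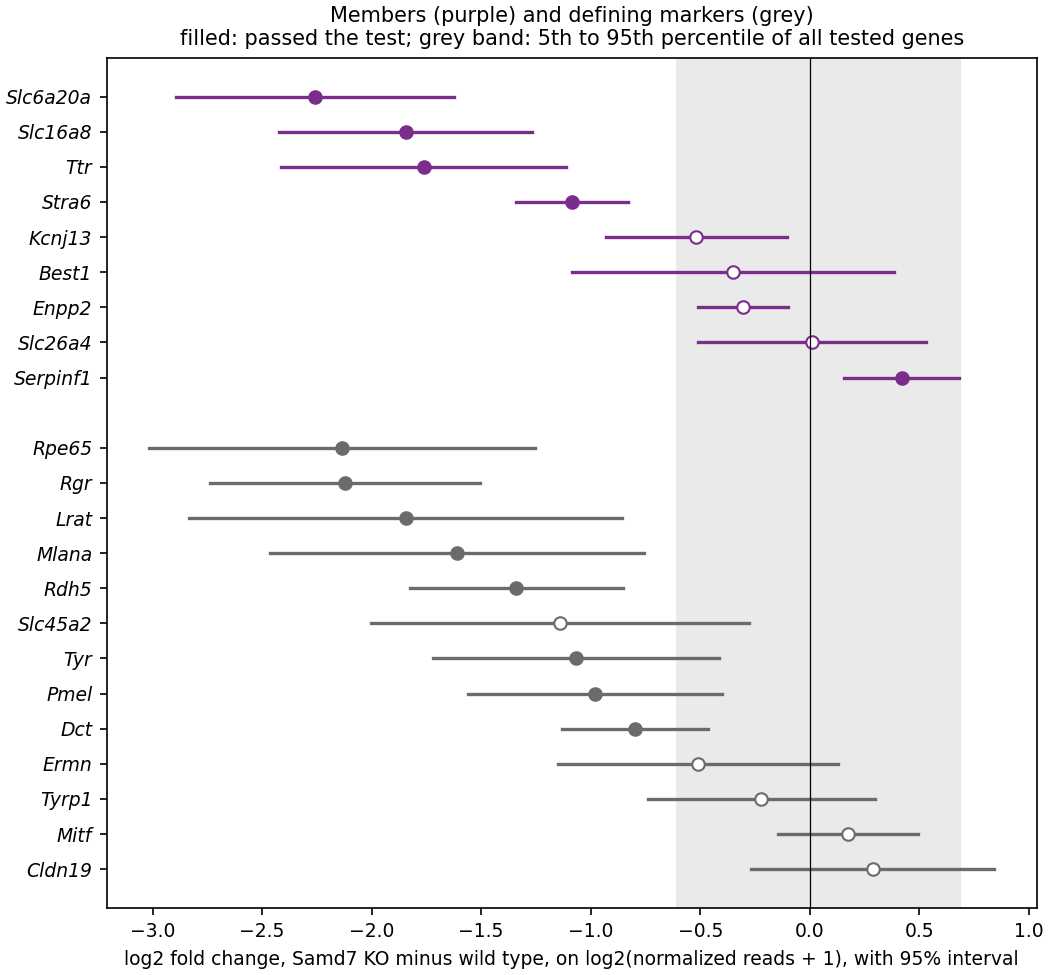
Log2 fold changes (horizontal axis, KO minus wild type on the log2(normalized reads + 1) scale) with 95% intervals for the 9 members (purple) and 13 defining markers (grey); filled points passed the test, and the grey band spans the 5th to 95th percentile of all tested genes, -0.61 to 0.69. Slc16a8, Ttr and Stra6 lie in the range of the falling markers, Slc6a20a at -2.26 lies just below Rpe65 at -2.14, and the other members lie inside the band.

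To show how much a member differed beyond the markers, each was set against the geometric mean of the 13 markers in the same library, as a log2 ratio. Against them Stra6 differed by -0.06, at 2.28 ± 0.12 in KO-labelled libraries and 2.35 ± 0.14 in wild type (SD, n = 3 each, exact two-sided permutation p = 0.7). Slc6a20a and Slc16a8 were lower by 1.23 and 0.82, without overlap, and Ttr was lower by 0.74 with overlap (exact permutation p = 0.1, 0.1 and 0.2). Serpinf1, Slc26a4, Enpp2 and Kcnj13 were higher by 1.44, 1.03, 0.72 and 0.51, without overlap (exact permutation p = 0.1 each), and Best1 by 0.67 with overlap (exact permutation p = 0.3). Because the markers fell, a gene that does not change comes out higher on this ratio. Slc26a4 is such a case, with a log2 fold change of 0.01, so a higher ratio does not show a rise of the member. With 3 libraries against 3 the smallest p such a test can give is 0.1.

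The 13 markers were not of 1 kind, however. The 4 visual cycle genes Rpe65, Rgr, Rdh5 and Lrat all fell, and their sum was 897, 566 and 1351 normalized reads in KO 1, 2 and 3 and 3848, 3788 and 2263 in wild type 1, 2 and 3. The 6 melanosome genes had another order, at 1047, 866 and 609 in KO-labelled libraries and 1603, 1364 and 1230.2 in wild type. KO 3 was thus the highest KO library for visual cycle genes and the lowest for melanosome genes. This division was chosen after the values were seen.

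Set against the 4 visual cycle genes alone, Ttr had nearly the same ratio in all 6 libraries. Its log2 ratio lay between 1.48 and 1.74 throughout, at 1.64 ± 0.12 with the KO label and 1.54 ± 0.07 in wild type (SD, n = 3 each), a difference of 0.10 (exact permutation p = 0.3). Slc16a8 differed by 0.02, at 0.09 ± 0.35 against 0.07 ± 0.15 (SD, n = 3 each, exact permutation p = 1), and Slc6a20a differed by -0.40 with overlap (exact permutation p = 0.4). Stra6 was higher by 0.78 with overlap (exact permutation p = 0.2), having fallen less than these markers did. The other 5 members were higher against them by 1.34 for Kcnj13 to 2.28 for Serpinf1 (exact permutation p = 0.1 each). Here too the fall of the markers makes an unchanged gene come out higher. The 4 genes were set apart after these data were seen, so the p-values only describe the ratios. With n = 3 each, a large p-value cannot show that a ratio is unchanged.

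**Figure D3:**
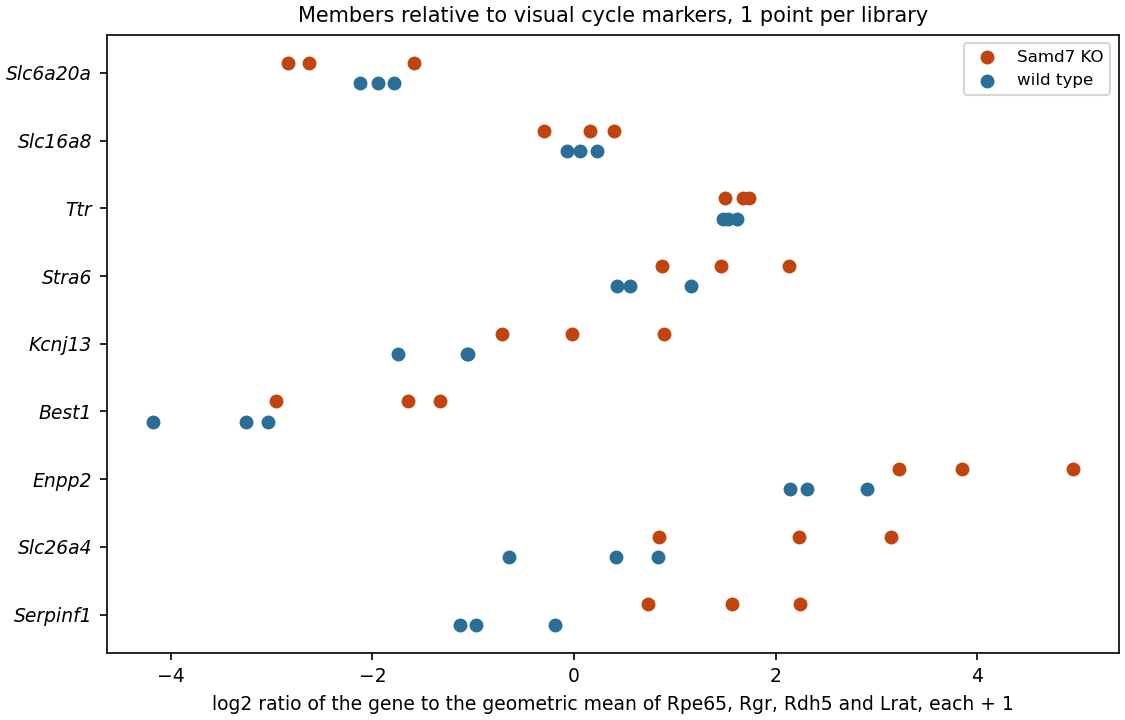
Log2 ratio of each member to the geometric mean of the visual cycle markers Rpe65, Rgr, Rdh5 and Lrat (horizontal axis), 1 point per library, orange for Samd7 KO and blue for wild type. The points of Ttr lie between 1.48 and 1.74 in all libraries, while those of Serpinf1 and Enpp2 are apart by group.

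Libraries of 1 group also differed among themselves, and the members did not share 1 pattern. With each group mean removed, the deviations of Ttr over the 6 libraries correlated with the mean of the visual cycle genes at r = 0.99, those of Slc16a8 at 0.92, Stra6 at 0.88 and Slc6a20a at 0.65. For Serpinf1, Best1 and Kcnj13 the values were 0.04, 0.18 and 0.22, and for Enpp2 and Slc26a4 they were -0.23 and -0.60. With the 6 melanosome markers the members that fell had the opposite sign, at -0.47 for Ttr, -0.25 for Slc16a8, -0.70 for Stra6 and -0.36 for Slc6a20a. With all 13 markers the values were 0.83 for Ttr, 0.93 for Slc16a8, 0.62 for Stra6, 0.55 for Slc6a20a and 0.55 for Kcnj13. The size of the deviations differed too: in KO 2 and KO 3 the visual cycle genes stood at -0.80 and 0.82, Ttr at -0.76 and 0.68, and Stra6 at only -0.15 and 0.20. All these correlations rest on 6 libraries with group means removed, and all genes of a library share its size factor. They are given as descriptions.

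Slc26a4 had a different pattern over the libraries. Its deviations correlated at r = 0.96 with the mean of 12 markers of ciliary and choroid plexus epithelium, and at 0.94 with Best2, a bestrophin of the ciliary epithelium, and with Cldn2, a claudin of leaky epithelia. Single markers among the 12 were far from alike: besides Cldn2, F5 was at 0.85, Zic1 at 0.68 and Folr1 and Kl at 0.67, but the other 7 ran from -0.47 for Calml4 and 0.02 for Prlr to 0.49 for Kcne2. Best2 had 779.8, 1028 and 447 normalized reads in the KO-labelled libraries and 1371, 759 and 1351 in wild type, with the same low libraries in each group as Slc26a4, KO 3 and wild type 2. Of those 12 markers 1 rose, 2 fell and 9 did not pass (median log2 fold change -0.02), and their sum was 20101 to 20950 normalized reads in the KO-labelled libraries and 8230 to 9193 in wild type. That sum was set by Kcne2, a potassium channel subunit, at 16766 ± 265 against 4836 ± 220 normalized reads (± SD over n = 3 a group, adjusted p by limma = 4.97e-09). Clic6 was 1.83-fold lower (limma adjusted p = 0.00762) and Tmem72, at 1.92 to 21.6 normalized reads, was also lower (limma adjusted p = 0.0103). With the 13 pigment epithelium markers the correlation of Slc26a4 was -0.14, made up of opposite courses, at 0.66 with the 6 melanosome markers and -0.60 with the 4 visual cycle markers. Genes outside the 12 markers also had KO 3 and wild type 2 as low libraries, so this pattern was not particular to the 12. The transport gene Slc22a8 had 438, 476 and 337 normalized reads in the KO-labelled libraries and 424, 267 and 370 in wild type. The scleral marker Fmod had 2023, 2114 and 1382 against 1877, 1182 and 1703. Not all genes of their lists shared it. Best2, Cldn2, F5, Folr1, Kl, Calml4, Prlr, Slc22a8 and Fmod were picked after their values were seen.

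**Figure D4:**
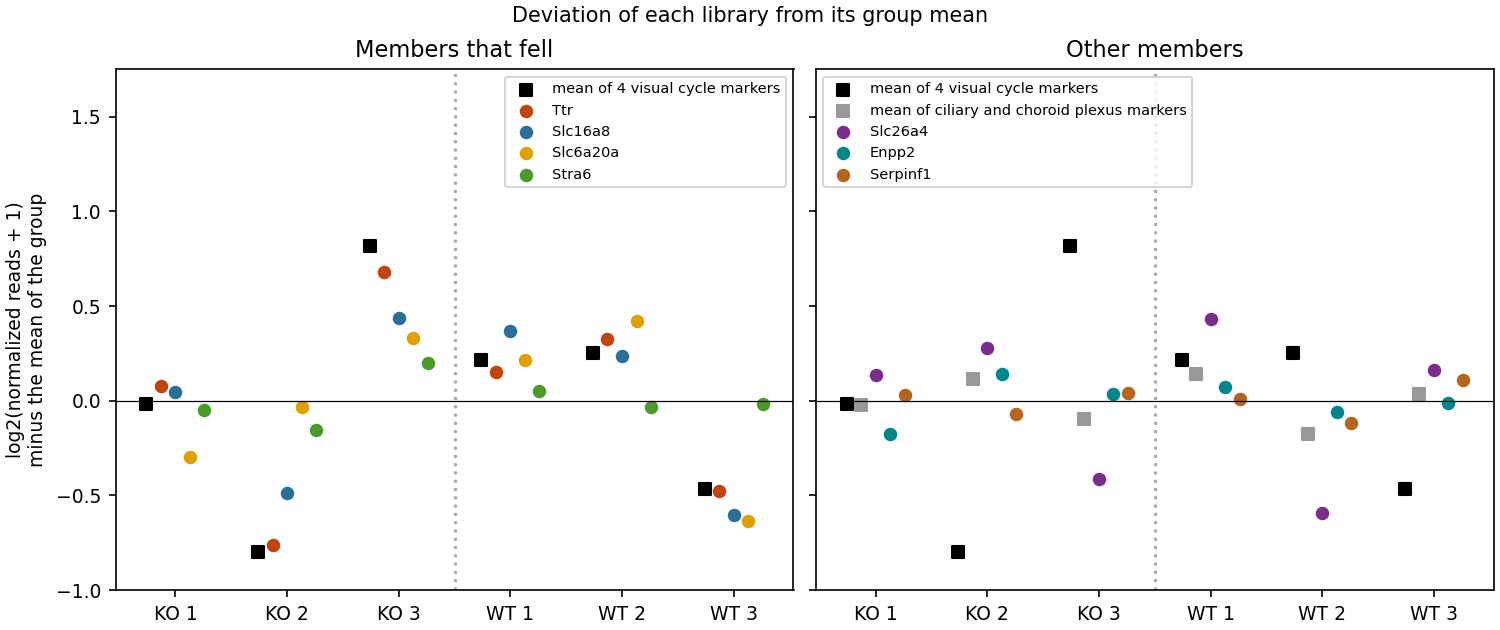
Deviation of each library from its group mean on the log2(normalized reads + 1) scale (vertical axis) for members and for means of marker genes (squares), by library. Ttr and Slc16a8 follow the 4 visual cycle markers, with KO 2 and wild type 3 low and KO 3 high, whereas Slc26a4 is low in KO 3 and wild type 2.

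Over all 6 libraries the genes most like the mean profile of the 9 members were Tspan4, Raly, Nkain1, Psmc3, Dctn6, Map3k14, Pgm1 and Abhd8, with Pearson r from 0.993 to 0.996 on the log2 scale and from 0.925 to 0.967 with group means removed. Their own differences were small, with log2 fold changes from -0.43 for Map3k14 to -0.23 for Dctn6, and 6 of the 8 passed the test. They were chosen from 20277 genes for this likeness over 6 points, so the values of r describe the choice.

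Of the 18 tested family relatives of the members, 3 fell and the other 15 did not pass (median log2 fold change 0.10). Kcnj14, a potassium channel related to Kcnj13, was 1.88-fold lower (25237 ± 2003 against 47439 ± 4599 normalized reads, ± SD over n = 3 a group, adjusted p by limma = 1.30e-05). Slc16a3, the lactate carrier MCT4, was 2.28-fold lower (3022 ± 312 against 6896 ± 1533, limma adjusted p = 1.04e-04), and the taurine transporter Slc6a6 was 1.24-fold lower (limma adjusted p = 0.0162). Enpp3, at 17.8 ± 3.89 against 5.69 ± 4.24 normalized reads, did not pass (limma adjusted p = 0.0745). Slc16a1, the lactate carrier MCT1 (named here with its value known), had a log2 fold change of -0.03 (limma, with -0.30 to 0.25 as its 95% interval, adjusted p = 0.927).

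Genes that bind or receive the members' products mostly did not pass. Of 17 tested, 1 rose and the other 16 did not pass (median log2 fold change -0.02). Plxdc2, a receptor of pigment epithelium-derived factor, rose 1.38-fold (629 ± 96.7 against 457 ± 35.1 normalized reads, ± SD over n = 3 a group, adjusted p by limma = 0.0426), as Serpinf1 did. Pnpla2, the lipase also named as a receptor of that factor, had a log2 fold change of -0.27, the thyroid hormone receptor Thra -0.25 and the thyroxine deiodinase Dio2 0.33, and these 3 did not pass (limma adjusted p = 0.0693, 0.0553 and 0.0752). Rbp4, the retinol-binding protein that Ttr carries and Stra6 receives, was picked after its value was seen, at 68.8, 48.7 and 88.5 normalized reads in the KO-labelled libraries and 86.4, 87.7 and 77.2 in wild type. Its groups overlapped (limma log2 fold change -0.32, with -0.83 to 0.19 as its 95% interval, adjusted p = 0.413).

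Other transport genes known from the pigment epithelium moved both ways. Tests of 15 found 3 that fell and 2 that rose, and the other 10 did not pass (median log2 fold change -0.07). The water channel Aqp1 was 2.02-fold lower (4048 ± 251 against 8180 ± 911 normalized reads, ± SD over n = 3 a group, adjusted p by limma = 1.20e-05), carbonic anhydrase Car14 1.48-fold lower (limma adjusted p = 3.54e-04) and the glucose carrier Slc2a1 1.39-fold lower (limma adjusted p = 0.00139). The chloride cotransporter Slc12a2 rose by a log2 fold change of 0.58 (limma adjusted p = 0.00692). Wild-type means of Aqp1, Car14 and Slc2a1 were 8180, 6454 and 25396 normalized reads. Rgr, the highest of the 13 defining markers, had 1972. Which cells the reads of these transport genes came from was not tested.

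Among 19 other secreted proteins of the pigment epithelium 2 rose, 1 fell and 16 did not pass (median log2 fold change 0.09). The matrix protein Sparc rose 1.57-fold (37859 ± 2366 against 24044 ± 1655 normalized reads, ± SD over n = 3 a group, adjusted p by limma = 7.28e-05) and clusterin, Clu, 1.26-fold (limma adjusted p = 0.00821). Vitronectin, Vtn, which rods also make in quantity, was 1.37-fold lower (limma adjusted p = 3.27e-04). The phospholipid transfer protein Pltp did not pass (log2 fold change -0.35, limma adjusted p = 0.0544). Wild-type means of Clu and Vtn were 59535 and 90450 normalized reads, and that of Rgr, the highest defining marker, was 1972. Which cells the reads of these secreted proteins came from was not tested.

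Cells other than the pigment epithelium can supply Serpinf1 and Enpp2, so markers of such cells were measured beside them. Of 7 fibroblast and scleral markers tested 3 rose, Col1a2 (1.57-fold), Pdgfra (1.53-fold) and Col3a1 (2.64-fold), and the 8 listed summed to 2757 to 3684 normalized reads in the KO-labelled libraries and 2057 to 3055 in wild type. Of 8 Müller glia markers, 2 rose, Vim and Slc1a3, and 1 fell, Glul. Of 8 vessel markers Kdr rose (1.79-fold), Plvap fell (1.35-fold lower) and 6 did not pass. The 5 oligodendrocyte markers tested did not pass, with a median log2 fold change of -0.41, and Mbp, Mag and Ugt8a had lower values in all KO-labelled libraries. The 8 listed summed to 2469 to 2766 against 2261 to 2521 normalized reads, a sum mostly of Cnp (2041 against 1763). All 5 red blood cell markers rose, with a median log2 fold change of 1.96 and sums of 5661 to 8293 against 1467 to 2232 normalized reads. Of 8 retina markers 5 fell, Gnat1 among them, and 3 did not pass. The part of these cells in the values of the members was not tested.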

How the data were processed

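Per the labels' protocols, polyadenylated RNA of 1 retina per library was turned into cDNA with a low-input SMARTer kit, sheared, ligated and amplified, with no molecular identifiers described, and copies made by amplification are counted as reads. The submitters' processing notes name the builds GRCm38 and mm10 and, without roles, HTSeq 0.12.4, STAR 2.7.3a, cutadapt 3.0, DESeq2, DRAGEN and SAMtools 1.9. The deposited signal is, per the file headers and the values, the reads of a gene over the size factor of its library. The authors also deposited log2 fold changes, Wald scores and p-values from DESeq2, per the file headers. Dividing by the worth of 1 read gave whole reads within 0.01 for 100% of 166478 values above 0, and edgeR with TMM factors on these reads called 2494 genes.

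The main test was limma-trend (limma 3.58.1, R 4.3.3) on log2(value + 1), which understates changes of low genes, over the 20277 genes that reached 10 in 3 or more libraries. Two-sided p-values were adjusted over these genes by the Benjamini-Hochberg method and called under 0.05. Fold changes are ratios of group means. edgeR 4.0.16 and DESeq2 1.42.0 served as alternatives, beside other pseudocounts, filters, thresholds, scalings, a fit with a replicate block, and fits that leave out 1 library. The tests were first run on simulated counts, with an outcome that is not reported here. Replicates differed by more than counting noise (6.69 to 30.5 chi-square units per degree of freedom). Gene positions are from RefSeq (GRCm38.p6), whose symbols matched all 49997 rows, and lengths from GENCODE M21.

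The members, lists, tests and rules were chosen with earlier results of these data known. The rule named Samd7, all 9 members, up to 4 genes with the smallest adjusted p of each list, and the 8 genes most like the mean profile of the members with a mean value of at least 30 and no predicted-model symbol. Genes outside it are said to be picked after their values were seen, apart from Gigyf2, which overlaps Kcnj13, and Lrat, named with the other visual cycle genes. Some listed genes are not reported here by name.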

Additional observations from a re-analysis of the deposited data

How the results depend on the processing

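The falls of Slc6a20a, Slc16a8, Ttr and Stra6 kept their direction and their call in all 18 other ways to run the test, and the count of members that fell was 4 or 5 in each, with a range of 4 to 5 when single libraries were left out; the 5th was Enpp2. The count of members that rose was 1 with Serpinf1 and 0 with edgeR and upper-quartile factors, without a filter, at an adjusted p under 0.01 and with a replicate block, and it ranged from 0 to 1 when single libraries were left out, 0 without KO 1, KO 3, wild type 1, wild type 2 or wild type 3. The count of all genes called, 2432, was 4650 with limma-voom with sample quality weights, 1189 at the stricter threshold of 0.01, which by itself lowers a count, and 1313 (without wild type 3) to 3247 (without KO 1) when single libraries were left out, with 1497 without KO 3 and 1470 without wild type 2. Other causes were not tested.

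The log2 fold change of Slc26a4, 0.01, turned to -0.025 with edgeR and TMM factors, -0.028 with RLE and -0.058 with upper-quartile factors, -0.023 with DESeq2, -0.24 with limma-voom, and ranged from -0.29 (without wild type 2) to 0.23 (without wild type 1) when single libraries were left out, with -0.06 without KO 1 and -0.13 without KO 2; the cause was not tested. The median over the 9 members of the difference in log2 ratio to the 13 defining markers was 0.51, and 1.62 against Rpe65 alone and 1.34 against the 4 visual cycle markers alone, the last chosen after seeing the data; the log2 fold changes of these 4 ran from -2.14 to -1.34 and those of the 6 melanosome markers from -1.61 to -0.22. It was 0.35 to 0.53 when single libraries were left out.

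Replicate numbers are shared between the groups, but same-numbered libraries did not deviate together (r from -0.18 to -0.01). With 3 libraries a group this cannot settle whether the numbers pair libraries. With the replicate block 1624 genes were called, and among the members the call of Serpinf1 was lost (limma adjusted p = 0.103). The members with the fewest reads were Best1, at 24 to 58 reads a library, and Slc6a20a, at 19 to 35 in the libraries labelled KO; the part of depth in their values was not tested.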
